A study of Caenorhabditis elegans with 4 samples.

Results

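The regions described here are those that the deposited combined list of the ChIP labelled NHR-129 places on chromosome II of Caenorhabditis elegans. They were chosen by position alone, as every line of that list with II in its chromosome column, which gave 1085 of 11110 regions (9.77%). ChIP replicate 1 had 688 of its 7583 peaks on II and ChIP replicate 2 had 667 of its 7109. All positions are those of WormBase WS220. No genome or gene annotation of that build was used here, so no gene and no sequence is given for any region.

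NHR-129 is a nuclear hormone receptor, a class of transcription factors that bind DNA through zinc fingers and many of which respond to small lipophilic ligands. Nematodes have expanded this family far beyond that of insects or vertebrates. Chromosome II is an autosome, and worm autosomes share a layout: a gene-rich central domain that seldom recombines, between 2 arms that recombine often and carry more repeats and fewer conserved genes. On the X chromosome this contrast between centre and arms is weaker.

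Chromatin came from hermaphrodites at the L2 larval stage, grown at 20 °C, of strain OP339. The strain carries the unc119(ed3) mutation and the transgene wgIs339, in which nhr-129 is joined to TY1, EGFP and FLAG, together with a copy of unc119. It was made by bombardment and not outcrossed, and the labels report the fusion protein in seam cells, pharynx and head neurons. Whole larvae were used for ChIP. The 4 samples, all of this one genotype, were 2 ChIP samples precipitated with anti-GFP antibodies and 2 Input samples of total chromatin, and peak lists of the 2 ChIP samples and 1 combined list were analysed. Whether the replicates came from separate cultures is not stated in the labels. The lists carry no read counts, so their depth is unknown. All 25802 peak names in the lists carry GEI-11, which is a different worm protein, and 0 contain NHR. The identity of the precipitated factor therefore rests on the labels.

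Regions on II were most frequent in the centre of the chromosome and least frequent on its left arm. The centre, from 4880000 to 12020000, held 673 of the 1085 regions (62.0%), the left arm 176 (16.2%) and the right arm 236 (21.8%). Per Mb, the combined list had 94.3 regions in the centre, 36.1 on the left arm and 72.7 on the right arm. Replicate 1 had 64.1 peaks per Mb in the centre, 18.6 on the left arm and 42.8 on the right arm. Replicate 2 had 59.0, 21.3 and 43.7 in the same order. All 3 lists thus gave the same order of the 3 domains, and within each domain the replicates lay closer to each other than any 2 domains did.

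Set against both arms together, the centre was 1.86 times as dense in the combined list, 2.27 times in replicate 1 and 1.95 times in replicate 2. The density was 94.3 regions per Mb in the centre and 50.7 on the arms of the combined list, 64.1 and 28.3 peaks per Mb in replicate 1, and 59.0 and 30.3 in replicate 2. The direction was the same in 2 of 2 replicate lists. An exact sign-flip test over 2 lists gives a two-sided p of 0.5, the smallest it can give, so this test cannot call any difference between domains or chromosomes. No other test over samples was run. The chromosome was taken to end at its last called base, 15266796. Regions were placed by their midpoints.

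Along the chromosome, the bins of the left arm stood apart from those of the centre, and those of the right arm did not. In 0.5-Mb bins of the combined list, the 14 bins that lie wholly in the centre held 34 to 60 regions (median 47), and the 9 bins of the left arm held 6 to 26 (median 18). The ranges of the centre and the left arm did not overlap. They did not overlap in replicate 1 either, with 21 to 44 peaks per bin in the centre and 3 to 17 on the left arm, nor in replicate 2, with 20 to 40 and 3 to 18. The 5 bins of the right arm held 23 to 45 combined regions and overlapped both other ranges. In replicate 2 they held 13 to 35 peaks, the highest of them from 14000000 to 14500000. Across 30 bins, the counts of the replicates had a Pearson correlation of 0.958 and a Spearman correlation of 0.966. These describe bins of 2 libraries, which share the chromosome and its domains, and bins are not replicates.

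The arms of II differed from each other. The left arm had 0.496 times the density of the right arm in the combined list, 0.436 times in replicate 1 and 0.487 times in replicate 2. This comparison was chosen after the counts had been seen. In base pairs covered, the combined list had 62.5 kb per Mb in the centre, 20.1 kb per Mb on the left arm and 46.0 kb per Mb on the right arm. Replicate 1 covered 43.0, 9.96 and 26.6 kb per Mb in the same domains, and replicate 2 covered 37.8, 10.4 and 26.5. By covered length, therefore, the left arm was also the sparsest domain in each of the 3 lists.

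The low density of the left arm was present among weak and strong regions. Within the combined list, regions were divided into 6 classes by the -log10 of the q-value, with limits at 2, 5, 10, 20, 40 and 100. The ratio of the centre to the left arm was 2.26 in the weakest class (35.7 and 15.8 regions per Mb), 2.34 and 2.76 in the next classes, and 3.49 between 20 and 40. It was 5.98 between 40 and 100, from 35 regions in the centre and 4 on the left arm, and 9.57 above 100, from 14 regions and 1. The ratio thus grew from class to class in the combined list, where the upper values rest on few left-arm regions. In replicate 1 it lay between 2.53 and 8.2, and in replicate 2 between 2.25 and 5.74 in the 5 lower classes, without this steady order. The centre had 1.06 times the density of the right arm in the weakest class of the combined list. This value was 1.39 to 1.66 in the classes from 5 to 100, and 3.18 above 100, from 14 regions and 2. The ratio of the left to the right arm lay between 0.242 and 0.603 in the 6 classes. In the replicate lists it lay between 0.166 and 0.798 in the 5 lower classes. Above 100, replicate 1 had 1 peak on the left arm and 0 on the right, while replicate 2 had 0 on both.

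**Figure D1:**
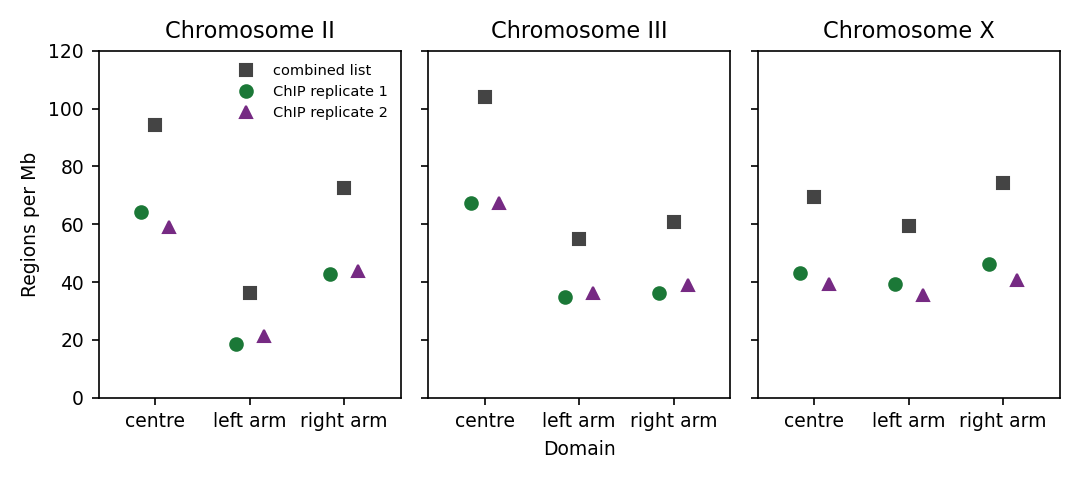
Regions per Mb (vertical axis) in the centre, left arm and right arm of chromosomes II, III and X, with squares for the combined list, circles for ChIP replicate 1 and triangles for ChIP replicate 2. On II the left arm lies at 36.1 regions per Mb in the combined list, against 55.0 on III and 59.4 on X.

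III and X served for comparison, with the boundaries of II carried over as 32% and 78.7% of the length, since boundaries were given for II alone. In the combined list, II had 71.1 regions per Mb over its whole length, III 78.9 and X 67.4. In replicate 1 the densities were 45.1 on II, 50.3 on III and 42.6 on X, and in replicate 2 they were 43.7, 51.4 and 38.4. II was therefore less dense than III and denser than X in each list, by ratios of 0.85 to 0.9 against III and of 1.05 to 1.14 against X. The order against X was turned round among the strongest 50% of the combined list, where the ratio was 0.985. Relative to protein-coding genes, counted per chromosome in the RefSeq annotation of WBcel235 and therefore on another build, II had 31.5 combined regions per 100 genes, III 41.1 and X 43.7. The values were 20.0, 26.2 and 27.6 in replicate 1, and 19.4, 26.8 and 24.9 in replicate 2. II held the fewest regions per 100 genes of the 6 chromosomes in all 3 lists.

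The difference between II and III was largest on the left arm. The left arm of II had 0.656 times the density of that of III in the combined list, 0.537 times in replicate 1 and 0.586 times in replicate 2. The centres had ratios of 0.91, 0.952 and 0.875, and the right arms of 1.2, 1.18 and 1.12. On III, the centre had 104 regions per Mb in the combined list, the left arm 55.0 and the right arm 60.8, so that its left arm reached 0.905 times the density of its right arm, against 0.496 on II. The same ratio was 0.798 on X. The centre of X was 1.06 times as dense as its arms in the combined list, 1.03 times in replicate 1 and 1.04 times in replicate 2. The contrast of the centre with both arms together was thus large on II and III and close to 1 on X. On II it lay mainly with the left arm. In the combined list, the centre of II was 2.61 times as dense as the left arm and 1.3 times as dense as the right arm. These ratios were 1.88 and 1.7 on III. The ratio of the centre to the right arm of II was 1.5 in replicate 1 and 1.35 in replicate 2. When each chromosome was cut into 3 equal parts, the middle part had 1.65 times the density of the outer ones on II, 1.68 times on III and 0.991 times on X.

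Neighbouring regions of II lay several kb apart, with long empty stretches on the left arm. In the combined list, the median distance between the edges of neighbours was 5743 bp (interquartile range 1561 to 15684 bp), against 6236 bp on III and 7021 bp on X. By domain, the median was 5405 bp in the centre, 12862 bp on the left arm and 4618 bp on the right arm. In replicate 1, the medians were 8927, 28050 and 8948 bp, and in replicate 2 they were 9209, 23120 and 8581 bp. The median spacing of the right arm was thus near that of the centre. The upper quartile in the combined list was 12214 bp in the centre, 36692 bp on the left arm and 16004 bp on the right arm. Between the centre and the right arm, the upper quartiles differed more in the replicates. They were 19344 and 32618 bp in replicate 1, and 21551 and 34424 bp in replicate 2.

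**Figure D2:**
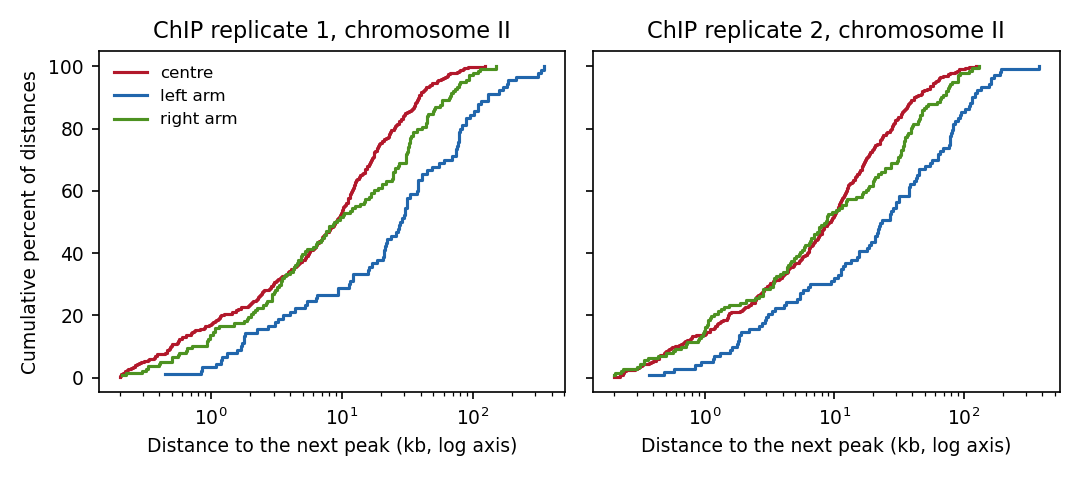
Cumulative percent (vertical axis) of the distances between neighbouring peaks of chromosome II, in kb on a log axis, for ChIP replicate 1 and ChIP replicate 2, by domain. The curves of the centre and the right arm have medians between 8581 and 9209 bp, and that of the left arm is shifted to longer distances, with medians of 28050 bp in replicate 1 and 23120 bp in replicate 2. The upper quartiles of the centre and the right arm differ, at 19344 and 32618 bp in replicate 1 and 21551 and 34424 bp in replicate 2.

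The longest stretch of II without a base of any list ran from 1861751 to 2186443, or 325 kb. The next were 2479317 to 2649018 (170 kb) and 3270942 to 3428206 (157 kb), also on the left arm. Stretches of 100 kb or more numbered 10 on II, of which 0 lay in the centre, 8 on the left arm and 2 on the right arm. III had 3 such stretches, the longest of 163 kb, and X had 6, the longest of 210 kb. Absence of a region means only that no peak passed the authors' threshold there. With the longest stretch taken out of its length, the left arm still had 0.532 times the density of the right arm. In bins of 100 kb, 0 of 71 centre bins held no combined region, against 6 of 48 left-arm bins (12.5%) and 0 of 31 right-arm bins.

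The densest 100-kb bins all lay in the centre. The bins 6800001 to 6900000 and 7800001 to 7900000 each held 20 combined regions, and 7600001 to 7700000 held 18. In the first, replicate 1 had 13 peaks and replicate 2 had 14. The regions of this bin covered 26.4 kb, and 4 of them were in the strongest 10% of the list. The second had 14 peaks in each replicate but covered 15.1 kb, with 1 region in the strongest 10%. The third had 8 peaks in replicate 1 and 10 in replicate 2. Dense bins of similar counts thus differed in how strong their regions were. Of the 1085 regions, 732 (67.5%) had no neighbour within 1 kb, against 68.1% on III and 75.9% on X. The longest chain of regions with less than 1 kb in between held 6, as on III and X. On II it lay between 4090781 and 4094694 on the left arm. Of the 6 regions in that chain, 1 was in both replicates, and the best of them ranked 3464 of 11110 in the combined list.

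Regions of II had similar median widths in all 3 domains, and few wide regions lay on the left arm. The median width in the combined list was 460 bp in the centre, 477 bp on the left arm and 463 bp on the right arm. Over the whole chromosome it was 463 bp in the combined list (interquartile range 335 to 722 bp), 463 bp in replicate 1 and 447 bp in replicate 2. On III the medians were 460, 476 and 462 bp in these lists, and on X 518, 547 and 532 bp, so regions of II were about as wide as those of III and narrower than those of X in each list. Regions of 1500 bp or more made up 6.18% of the regions of II (67 of 1085), 7.08% of those of III and 6.63% of those of X. Their share over all chromosomes was 4.08%, a value lowered by V (1.38%), while I had 5.97% and IV 5.01%. Per Mb of II, they numbered 6.86 in the centre, 0.82 on the left arm and 4.31 on the right arm. These counts per Mb also carry the difference in density between the domains. Within each domain, they were 49 of 673 regions in the centre, 4 of 176 on the left arm and 14 of 236 on the right arm. The left arm had 4 such regions in the combined list, 1 in replicate 1 and 0 in replicate 2.

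Very short regions were rarer on II than in the whole list, where V supplied most of them, though not rarer than on III and X. Regions under 100 bp numbered 36 on II (3.32%), against 2.67% on III, 1.51% on X and 14.1% over all chromosomes. V held 1289 of the 1570 such regions of the combined list. They made up 27.4% of the regions of V, 8.76% of those of IV and 3.41% of those of I. The median -log10 q-value of those on II was 2.55. On II, 0 of the 36 were overlapped by both replicates, against 0 of 29 on III, 0 of 18 on X and 4 of 1570 over all chromosomes. Wide regions of II, by contrast, were in both replicates in 64 of 67 cases, against 74 of 77 on III and 74 of 79 on X. Their median -log10 q-value was 40.4 on II, 55.3 on III and 48.6 on X. Across the 1085 regions, width and strength had a Spearman correlation of 0.569, and both come from the same reads.

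Support by both replicates on II was near that of the whole list. Of the 1085, 539 were overlapped by at least 1 bp in both replicate lists (49.7%, 95% Wilson interval 46.7 to 52.6%, counting error only), against 48.5% over all chromosomes. Only replicate 1 overlapped 125 regions (11.5%), only replicate 2 overlapped 98 (9.03%), and neither overlapped 323 (29.8%, interval 27.1 to 32.6%), against 26.9% over all chromosomes. The share in both was 54.9% on III (52.0 to 57.9%) and 49.0% on X (46.2 to 51.8%). The interval of II overlapped those of X and of III. Within II it was 52.2% in the centre (48.4 to 55.9%), 43.2% on the left arm (36.1 to 50.6%) and 47.5% on the right arm (41.2 to 53.8%), with overlapping intervals. The combined list is not independent of the replicates.

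Support on II rose with strength, with a sharp change between -log10 q-values of 5 and 10. The combined list is not independent of the replicates, and every list holds only q-values under 0.01. A rise of support with strength is therefore in part built into the comparison, and the shares are a description. Below 5, 8 of 441 regions (1.81%) were in both replicates. Between 5 and 10 it was 154 of 265 (58.1%, interval 52.1 to 63.9%), and between 10 and 20 it was 170 of 172 (98.8%). Above 20, every region of II was in both replicates, with 140, 50 and 17 regions in the 3 upper classes. On III the corresponding shares were 1.95%, 64.7% and 99.1%, and on X they were 0.648%, 46.1% and 98.2%, so the change fell in the same class on all 3 chromosomes. The strongest regions of II that neither replicate overlapped all lay in the centre: 8457083 to 8457754 with a q-value of 5.57e-07, 7662102 to 7663127 with 1.06e-06, 8438516 to 8439114 with 1.19e-06, 5271982 to 5272351 with 2.37e-06, and 5209132 to 5209896 with 2.99e-06. They ranked 547 to 594 among the 1085 regions of II.

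**Figure D3:**
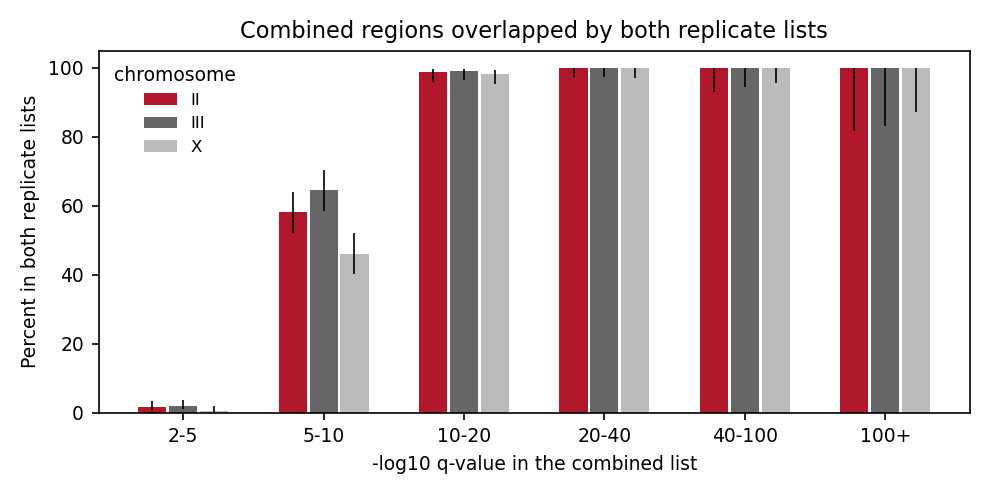
Share of combined regions, in percent, that both replicates overlapped (bars, vertical axis, from 0) by class of -log10 q-value, for chromosomes II, III and X, with 95% Wilson intervals as lines. Support on II is 1.81% in the weakest class, 58.1% in the next and 98.8% or more from 10 upwards. The combined list is not independent of the replicates, so part of this rise is built in.

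Most peaks of II met a peak of the other replicate, and the paired peaks lay close together. Among 688 peaks of replicate 1 on II, 555 met a peak of replicate 2 (80.7%, Wilson interval 77.6 to 83.4%), against 71.7% over all chromosomes, 87.6% on III and 79.3% on X. Among 667 peaks of replicate 2 there, 557 met a peak of replicate 1 (83.5%, 80.5 to 86.1%), against 77.6% over all chromosomes, 87.7% on III and 89.2% on X. Among 534 pairs of II in which each peak met 1 peak of the other list, the midpoints differed by a median of 24 bp and the starts by 28.5 bp. Such pairs are chosen for their overlap, which itself limits the difference, and peaks without a counterpart do not enter. The q-values of the pairs had a Spearman correlation of 0.866. Peaks of II that were not shared were weak, with a median -log10 q-value of 2.57 in replicate 1 and 2.5 in replicate 2, against 7.09 and 6.54 for shared peaks. For replicate 1 peaks, the share was 79.7% in the centre (75.8 to 83.1%) and 83.5% on the left arm (74.6 to 89.7%). For replicate 2 peaks, it was 86.5% in the centre (82.9 to 89.4%) and 73.1% on the left arm (63.8 to 80.7%), so the order of the domains differed between the replicates.

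Strong regions were a smaller share of the regions of II than of the whole list, where they are 10% by choice. The strongest 10% of the combined list included 67 of the 1085 regions of II (6.18%, Wilson interval 4.89 to 7.77%), 7.91% of those of III (6.45 to 9.67%) and 9.23% of those of X (7.71 to 11%). In replicate 1, where 10% of all peaks were counted, the shares were 6.1% on II (4.55 to 8.15%), 9.67% on III and 11.3% on X. In replicate 2, with 9.99% counted, they were 7.05% on II (5.34 to 9.24%), 9.04% on III and 12.2% on X. II had the lowest share of the 6 chromosomes in all 3 lists. The intervals of II and X met in the combined list and did not in replicate 1 (X 9.22 to 13.7%) or replicate 2 (X 9.97 to 14.9%), and they cover counting error only. Among regions in both replicates, the share in the strongest 10% was 12.4% on II, 14.4% on III and 18.8% on X, against 20.6% over all chromosomes. V supplied 604 of the 1111 regions in the strongest 10% of the combined list, so ranks on the other chromosomes are set in part by V. On II itself, strong regions of the combined list numbered 6.86 per Mb in the centre, 1.02 on the left arm and 4 on the right arm. In replicate 1 these values were 4.2, 0.82 and 2.46, and in replicate 2 they were 4.34, 1.23 and 3.08. These counts per Mb also carry the difference in density between the domains. As a share of the combined regions of each domain, they were 7.28% in the centre (5.55 to 9.5%), 2.84% on the left arm (1.22 to 6.48%) and 5.51% on the right arm (3.25 to 9.2%). The shares in the same order were 6.55%, 4.4% and 5.76% in replicate 1, and 7.36%, 5.77% and 7.04% in replicate 2. Within each list the intervals of the domains overlapped.

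The 12 regions of II with the smallest q-values included 11 in the centre and 1 on the right arm. The first, 11633616 to 11636227, was 2612 bp wide and had a q-value of 1.18e-273 in the combined list, where it ranked 8. Replicate 1 had a peak of 2572 bp there (2.75e-170, rank 26) and replicate 2 a peak of 2558 bp (3.62e-154, rank 20). The extent of this locus was nearly identical in both replicates. The second, 8741174 to 8748173, was the widest region of II with 7000 bp, at a combined q-value of 7.65e-265. Replicate 2 covered it with 1 peak of 6934 bp (1.6e-103, rank 66), while replicate 1 split it in 2 peaks, the stronger of 4899 bp (1.39e-101, rank 101).

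The third to seventh were single peaks in both replicates. They lay at 6888168 to 6892797 (4630 bp, combined q-value 3.43e-231), 10444852 to 10447984 (3133 bp, 1.42e-224), 10555021 to 10557748 (2728 bp, 6.3e-200), 9059807 to 9062711 (2905 bp, 1e-189) and 6346387 to 6349087 (2701 bp, 1.27e-169). Their ranks ran from 48 to 90 in replicate 1 and from 62 to 169 in replicate 2. The ninth and the tenth, 8128005 to 8129983 (9.88e-143) and 11748476 to 11750455 (5.73e-142), ranked 97 and 180 in replicate 1 and 115 and 98 in replicate 2. The twelfth, 8015095 to 8020148, was 5054 bp wide in the combined list and was covered by a peak of 4795 bp in replicate 1 but of 2333 bp in replicate 2. Of the 5 widest regions of II, this one, 5335261 to 5340481 (5221 bp) and 14599267 to 14604389 (5123 bp) had a narrower best peak in replicate 2, of 2394 bp at 5335270 and 2314 bp at 14602068, against 4605 and 5092 bp in replicate 1. Replicate 2 divided the last 2 of these regions. It had 2 peaks of 3090 bp together at 5335261, and 3 peaks of 4407 bp together at 14599267.

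In the combined list, the strongest regions of the arms came after the 10 leading regions of the centre, which was not so in each replicate. The right arm held 14249104 to 14251946 (2843 bp, combined q-value 9.91e-123, the eleventh of II), 13953867 to 13954417 (551 bp, 2.21e-105) and 14599267 to 14604389 (5123 bp, 2.19e-90). The narrow region at 13953867 had a q-value of 1.19e-100 in replicate 1 and 5.98e-92 in replicate 2 and so ranked 104 and 95 there, above both wider ones. The left arm held 1819704 to 1820655 (952 bp, 7.72e-104), 1501703 to 1502558 (856 bp, 2.74e-83) and 4376194 to 4377377 (1184 bp, 4.44e-57). The first of these ranked 88 in replicate 1 (5.18e-106) and 75 in replicate 2 (1.16e-100), ahead of 5 of those 10 centre regions in replicate 1 and of 4 in replicate 2. These regions were taken as the 3 strongest of each arm after the values had been seen.

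The eighth region, 8418702 to 8421526 (2825 bp, combined q-value 8.31e-147, rank 116), stood apart because the replicates disagreed on it. Replicate 2 had 1 peak of 2796 bp there with a q-value of 2.42e-132, its rank 33. Replicate 1 had 3 peaks, at 8418777 to 8419672 (3.74e-07), 8420260 to 8420774 (7.98e-05) and 8420994 to 8421243 (6.7e-07), the best at rank 3520. The difference in -log10 q-value was 125, while the median difference over the 539 regions of II in both replicates was 1.67. The next largest was at 6346387 to 6349087, with 111 in replicate 1 and 68.3 in replicate 2. Since q-values depend on depth, which is unknown, such differences between lists are a description. Such differences also occurred on III, where the largest was at 8799631 to 8802681 with 176 in replicate 1 and 82.9 in replicate 2. A difference of 20 or more was found in 4 of the 539 regions of II, 9 of 597 on III and 7 of 584 on X. The cause of the difference at 8418702 was not tested, and this locus was singled out after its values were seen.

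**Figure D4:**
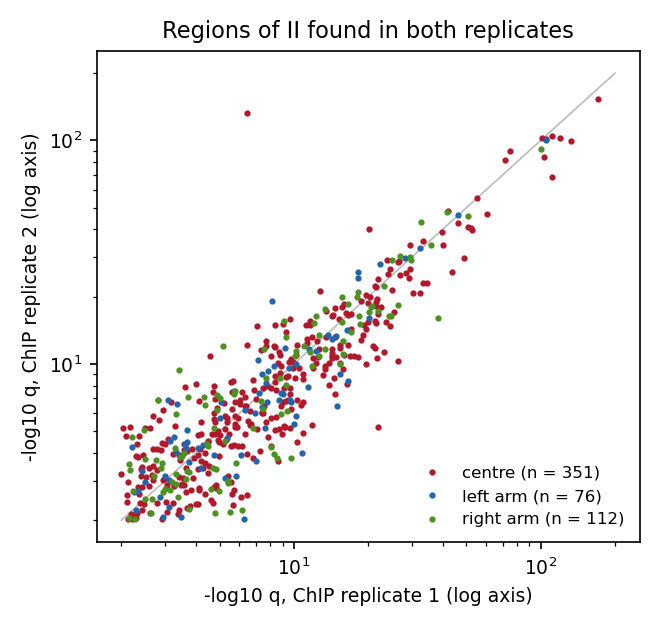
The -log10 q-value of the best overlapping peak in ChIP replicate 1 (horizontal, log axis) and ChIP replicate 2 (vertical, log axis) for the 539 combined regions of chromosome II found in both, coloured by domain, with a grey line of equality. Most points follow the line, and 1 point of the centre lies far above it at 6.43 in replicate 1 and 132 in replicate 2.

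A nearby locus differed between the lists in how it was divided. The region 8477054 to 8481510 (4457 bp, combined q-value 5.22e-91, rank 293) was divided into 6 peaks in replicate 1 and 4 in replicate 2, the most pieces of any region of II. Its best peaks were of similar strength, with -log10 q-values of 15.2 and 15.8. The region opened a chain of 4 regions, all in both replicates, that ended at 8486002. Division of this kind was limited: 30 of the 539 regions of II in both replicates were met by more than 1 peak of at least 1 replicate, and 24 of these 30 were 1500 bp or wider. On III it was 30 of 597 and on X 22 of 584.

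None of the regions next to the boundaries of the centre was in the strongest 10% of the combined list. At the left boundary, the first region inside was 4881578 to 4882259 (q-value 1.04e-14, in both replicates) and the last outside was 4855535 to 4856466 (2.62e-06, in replicate 1 only). At the right boundary, the last region inside was 12006643 to 12006946 (3.68e-10, in both replicates) and the first outside was 12038484 to 12039215 (0.00244, in neither).

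Nearly every replicate peak of II had a counterpart in the combined list. Replicate 1 had 1 peak of II without one, at 7897734 to 7897780, and replicate 2 had 6, the strongest at 2859966 to 2860677 with a q-value of 0.000288. The 4 of these that were followed up ranked between 5165 and 6822 in their lists. On III, 3 peaks of each replicate had no counterpart, and on X 6 of replicate 1 and 4 of replicate 2. One line of the replicate 2 list on II was commented out with a message about a coordinate conversion, at 5237657 to 5237997. The list also holds a peak of the same q-value (2.82e-05) at 5237658 to 5237999, 342 bp in place of 341, so this locus is still represented. It lies in a combined region that both replicates overlap.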

How the data were processed

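Synchronised worms were crosslinked with 2% formaldehyde, sonicated and precipitated with anti-GFP antibodies, per the labels' protocols. Peaks were called with PeakSeq on WormBase WS220, per the file headers and columns. The sources used here name no aligner and do not say how the combined list was made. The authors deposited for each peak its first and last base and a q-value (all under 0.01), which served to order and class peaks inside 1 list. Where q-values of the replicates stand side by side, they are a description. Read counts were not used here, so depth is unknown.

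Regions were placed by midpoint and compared by overlap of at least 1 bp in pandas 2.3.3 and NumPy 2.4.6 (Python 3.11.15). Intervals are 95% Wilson intervals from SciPy 1.17.1 for counting error, and figures were drawn in Matplotlib 3.10.9. The titles give the groups, ChIP and Input. Overlap, domain and spacing counts were tested on simulated data, and 7 of 7 planted values were returned. No test resampled regions or bins, which are not replicates. Named regions were the 12 with the smallest q-value, the 5 widest, the 3 densest 100-kb bins, the 3 longest empty stretches, the neighbours of each boundary, the 5 strongest in neither replicate, and up to 3 peaks per replicate without a combined region. Members, lists and comparisons were chosen with earlier results of these data known. Alternatives changed the list, the overlap rule, the strength and width limits and the boundaries. Annotation and sequences of regions were not analysed here.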

Additional observations from a re-analysis of the deposited data

How the results depend on the processing

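Over 10 results and 58 alternatives, 24 values stayed within a set limit, 33 moved past it and 1 changed direction. The limit was the spread between the replicates or, for support by both, the counting interval. For the 6 density ratios these numbers were 20, 18 and 1 of 39. The ratio of the left to the right arm and those of the centre to each arm were added after the data had been seen. Only regions in both replicates gave ratios of 2.13 for centre to arms, 0.451 for left to right arm and 0.814 for II to III. Their median width was 577 bp and their median distance 12434 bp. The share in the strongest 10% was 12.4%, against 20.6% over all chromosomes under the same restriction. All 67 strong regions of II and all 1111 of the whole list were in both replicates. The restriction thus changed only the total, 539 in place of 1085 on II, and the rise from 6.18% was fixed in advance. The strongest 50% of the combined list gave 2.17 for centre to arms, 0.43 for left to right arm, 0.792 for II to III and 0.985 for II to X (turned round). With this limit, the median width was 627 bp and the median distance 13705 bp, and 98.7% were in both replicates. Base pairs covered gave 0.437 for left to right arm, and regions of 100 bp or more a distance of 5990 bp. Support by both was 45.2% when 50% of a region had to overlap and 45.4% when its centre had to lie in a peak. Leaving out 1 replicate meant that the list of the other was used alone. Except for support, the values are therefore those of the replicate lists and no separate check of the combined list. They ranged from 1.95 to 2.27 for centre to arms, 0.436 to 0.487 for left to right arm and 0.85 to 0.896 for II to III. The ranges were 1.06 to 1.14 for II to X, 447 to 463 bp for width, 10130 to 10317 bp for distance and 6.1 to 7.05% for the strongest 10%. Support of the combined regions was 58.7 to 61.2%, since it then needs 1 list. The cause of these changes was not tested. No paired analysis was possible because peak lists of Input samples were not used here. With 2 replicate lists of unknown depth, an empty stretch shows only that no peak passed there, and the boundaries on III and X were carried over from II.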
